A study of Mus musculus with 7 samples.

Results

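A set of 10 genes known mainly from germ cells is described here in mouse embryos that lack Adnp, the gene of activity-dependent neuroprotective protein, a homeodomain and zinc finger protein of chromatin. They are Rhox5, Tex19.1, Fmr1nb, Tcfl5, Rnf17, Sycp3, Brdt, Ddx4, Dpep3 and Tex101, and make up 10 of the 12393 genes that the array names by a single symbol. A probe set, the group of short probes that reads a transcript, was taken wherever the platform annotation gave it only that symbol, with no filter on brightness. This gave 12 probe sets, with a pair each for Rnf17 and Brdt. The genes were selected on their signals, for reading higher on the knockout arrays than on the others, so every comparison of knockout with another genotype is a description of that choice. Such values carry no test here.

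The arrays were hybridised with RNA of whole embryonic bodies of C57BL/6 mice at embryonic day 9, of mixed gender. Knockout embryos (Adnp -/-) were read on 2 arrays, heterozygous embryos (Adnp -/+) on 3, and wild-type embryos (Adnp +/+) on 2. Each array held a pool of 2 embryos of 1 genotype, 14 embryos in all, and the embryos of a pool came from the same litter. Bodies had been separated from yolk sac and amnion, and genotypes came from PCR on yolk sac DNA for Adnp, the neomycin resistance gene or both. Embryos without Adnp were already abnormal in form on this day and are lost soon after, per the study's description. Replicates are therefore pools, p-values measure the spread between pools, and with whole bodies a larger number of cells of one kind cannot be told apart from more RNA per cell.

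Germline genes act in sperm, eggs and their precursors and are kept silent in most body cells. In mice many of them have promoters rich in CG dinucleotides that gain DNA methylation around implantation, and others are held by protein complexes such as the variant Polycomb complex that contains E2F6, MGA and MAX. Rhox5 and Tex19.1 are also known from placenta and other extraembryonic tissue, so they are not restricted to germ cells.

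The promoters are shown because these silencing routes act through letters in them. RefSeq windows on GRCm38.p6, running from 250 bases before to 50 bases after the start of the gene, were found for 9 of the genes, and Rnf17 had no entry. Each line is 300 bases, 5′ to 3′ on the gene's own strand, with 2 motifs in capitals. CACGTG is the E box that reads the same on both strands, the core letters bound by MGA and MAX, and GCGGGA, searched on both strands, is the core of E2F sites. All matches below fell on the printed strand and none overlapped another. The windows are those of the 4 genes that passed the threshold in both knockout comparisons, then of Sycp3 and Ddx4, the members with both motifs. They are Rhox5 (chrX:37754358-37754657, plus strand), Tex19.1 (chr11:121145893-121146192, plus strand), Fmr1nb (chrX:68761589-68761888, plus strand), Tcfl5 (chr2:180642642-180642941, minus strand), Sycp3 (chr10:88459337-88459636, plus strand) and Ddx4 (chr13:112652261-112652560, minus strand).
Rhox5: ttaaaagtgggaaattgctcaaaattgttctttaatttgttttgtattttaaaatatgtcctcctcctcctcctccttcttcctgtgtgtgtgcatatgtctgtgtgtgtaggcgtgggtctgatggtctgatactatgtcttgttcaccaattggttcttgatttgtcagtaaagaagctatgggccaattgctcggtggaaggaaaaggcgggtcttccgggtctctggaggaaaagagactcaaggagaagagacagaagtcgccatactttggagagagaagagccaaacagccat
Tex19.1: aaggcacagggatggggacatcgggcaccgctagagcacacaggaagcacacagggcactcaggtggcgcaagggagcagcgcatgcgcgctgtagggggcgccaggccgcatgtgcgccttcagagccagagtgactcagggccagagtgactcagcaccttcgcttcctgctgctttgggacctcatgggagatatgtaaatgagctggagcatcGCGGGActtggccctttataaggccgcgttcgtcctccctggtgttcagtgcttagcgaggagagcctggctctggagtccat
Fmr1nb: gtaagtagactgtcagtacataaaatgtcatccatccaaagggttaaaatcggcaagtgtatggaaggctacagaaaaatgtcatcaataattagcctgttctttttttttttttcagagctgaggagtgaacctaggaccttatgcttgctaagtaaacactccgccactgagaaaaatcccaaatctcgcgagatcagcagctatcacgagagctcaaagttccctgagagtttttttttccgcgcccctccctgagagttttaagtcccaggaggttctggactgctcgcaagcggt
Tcfl5: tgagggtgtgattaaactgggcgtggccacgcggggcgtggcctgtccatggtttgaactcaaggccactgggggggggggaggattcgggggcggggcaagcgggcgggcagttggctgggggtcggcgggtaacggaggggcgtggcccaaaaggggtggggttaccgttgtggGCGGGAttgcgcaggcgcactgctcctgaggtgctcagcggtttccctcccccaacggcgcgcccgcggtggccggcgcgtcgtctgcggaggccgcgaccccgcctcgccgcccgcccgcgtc
Sycp3: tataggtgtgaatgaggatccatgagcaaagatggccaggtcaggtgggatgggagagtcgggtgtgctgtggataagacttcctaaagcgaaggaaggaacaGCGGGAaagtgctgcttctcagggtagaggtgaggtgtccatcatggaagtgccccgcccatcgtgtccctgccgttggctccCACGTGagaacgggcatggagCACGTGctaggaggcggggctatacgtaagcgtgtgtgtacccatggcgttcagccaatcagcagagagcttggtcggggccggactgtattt
Ddx4: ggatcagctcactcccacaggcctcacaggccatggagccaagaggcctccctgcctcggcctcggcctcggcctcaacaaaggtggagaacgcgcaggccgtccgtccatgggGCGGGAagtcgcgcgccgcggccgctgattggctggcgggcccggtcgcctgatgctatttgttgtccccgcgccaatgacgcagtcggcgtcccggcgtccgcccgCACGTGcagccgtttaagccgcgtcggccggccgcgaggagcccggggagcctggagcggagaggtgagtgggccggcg

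CACGTG was present in the windows of 3 members, Sycp3, Brdt and Ddx4, and in 7.15% of all 32851 promoter windows. GCGGGA, on either strand, was present in 4 members, Tex19.1, Tcfl5, Sycp3 and Ddx4, and in 20% of all windows. Both were present in 2 members, Sycp3 and Ddx4, and in 1.99% of all windows. The promoters also differed in CG dinucleotides. Rhox5 had 5 and Fmr1nb had 9, close to the median of 7 over all windows. Ddx4 had 38, more than 95% of windows, and Tcfl5 had 35, more than 93% of windows. The others lay between 12 for Dpep3 and 23 for Brdt. Rhox5, Tex19.1, Fmr1nb and Tcfl5 thus ranged from 5 CG dinucleotides in Rhox5 to 35 in Tcfl5. Both motifs contain a CG themselves, and the members with a match had 15 to 38 CG dinucleotides. The shares over all windows were not matched for CG, so they do not show whether matches were more frequent in these genes. A match to these letters is a description and no measurement of binding, and methylation was not measured. The genes lay on 9 chromosomes, with only Rhox5 and Fmr1nb sharing one, the X chromosome.

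All arrays were alike in level, with median signals of 55.5 to 57.5 and correlations across probe sets of 0.947 to 0.974. No probe set carried Adnp as its only symbol, so the deleted gene gave no check of the genotype labels. Genes of the visceral endoderm, the cell layer that coats the early embryo and lines the yolk sac, stood far above the other arrays on both knockout arrays, and their values are given beside the members below. Against wild type, 154 of 22626 probe sets passed an adjusted p of 0.05, 108 of them higher. Against heterozygous embryos, 315 passed and 191 of them were higher.

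The label of expressed germline genes held unevenly. Only 4 of the 10 genes, Rhox5, Tex19.1, Fmr1nb and Tcfl5, had a probe set above the 40th percentile of probe set means. These means run over all arrays, knockout included. In the other 5 pools Tex19.1 stood at the 29.5th to 38.0th percentile and Fmr1nb at the 25.7th to 39.5th. Both thus passed only through the knockout pools, for which they were picked. The knockout signals of Sycp3, Brdt, Ddx4, Dpep3 and Tex101 lay under the 30th percentile on both arrays, and no detection calls were used. For those 5 genes the arrays gave a difference among dim signals and no sign by themselves that the transcript was present.

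Rhox5, an X-linked homeobox gene of the reproductive tract, read 413.2 and 480.7 in knockout pools, 41.6, 61.0 and 44.1 in heterozygous pools and 44.9 and 30.9 in wild-type pools. Both knockout pools stood far above the other five, and the heterozygous and wild-type pools overlapped. The means were 447 ± 47.7 in knockout (SD, n = 2), 48.9 ± 10.6 in heterozygous (n = 3) and 37.9 ± 9.90 in wild-type pools (n = 2). That is 11.8 times the wild-type signal and 9.14 times the heterozygous one, and the lower knockout pool was still 6.77 times the highest of the others. On the array's own scale Rhox5 stood at the 88.9th to 90.7th percentile in knockout pools and at the 37.4th to 52.1st in the others.

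Tex19.1 encodes a mammalian protein that restrains retrotransposons in germ cells and is needed in mouse spermatogenesis and placenta. It read 215.8 and 237.8 in knockout pools, 30.9, 28.7 and 26.4 in heterozygous pools and 28.3 and 20.5 in wild-type pools. The knockout pools were close to each other and stood apart from all others, while the heterozygous pools overlapped the wild-type ones. The mean knockout signal of 226.8 ± 15.6 was 7.91 times that of heterozygous pools, 28.7 ± 2.25, and 9.30 times that of wild-type pools, 24.4 ± 5.52.

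Fmr1nb, an X-linked neighbour of Fmr1 whose human counterpart is a cancer/testis antigen, read 172.6 and 251.2 in knockout pools. It read 21.4, 34.3 and 19.7 in heterozygous pools and 35.1 and 16.4 in wild-type pools. The knockout pools lay far apart from each other but the lower was 4.92 times the highest of the rest. Heterozygous and wild-type means were nearly equal, 25.1 ± 7.98 and 25.8 ± 13.2, against 211.9 ± 55.6 in knockout pools.

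Tcfl5, a basic helix-loop-helix transcription factor of spermatocytes, read 279.3 and 210.2 in knockout pools. It read 33.5, 45.6 and 57.5 in heterozygous pools and 48.5 and 24.8 in wild-type pools. Here the first knockout pool was the higher, unlike in the 3 genes above, and no heterozygous or wild-type pool came near either. The mean of 244.8 ± 48.9 in knockout pools was 5.38 times that of heterozygous pools, 45.5 ± 12.0, and 6.68 times that of wild-type pools, 36.7 ± 16.8. This probe set is of a kind that can match more than a single transcript. Tcfl5 lies on chromosome 2, as Adnp does, with 103 protein-coding genes between them.

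Rnf17, a RING and Tudor protein needed for spermatid development in mice, was read by a pair of probe sets that ran the same way. The first read 38.5 and 34.1 in knockout pools, 17.7, 8.6 and 12.1 in heterozygous pools and 3.2 and 8.7 in wild-type pools. The second read 51.9 and 60.9 in knockout pools, 18.2, 16.5 and 21.3 in heterozygous pools and 17.7 and 15.1 in wild-type pools. In both, the knockout pools lay above all others, by 1.93 and 2.44 times at the nearest approach. Rnf17 came closest to the 4 brighter genes, at the 38.4th to 51.5th percentile in knockout pools.

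Sycp3, a structural protein of the axes of meiotic chromosomes, read 15 and 11.2 in knockout pools, 1.5, 0.5 and 6.0 in heterozygous pools and 0.6 and 0.3 in wild-type pools. The groups with and without Adnp did not overlap, but even the higher knockout signal lay at the 23.2nd percentile of its array. Ddx4, the mouse Vasa RNA helicase that defines later germ cells, read 5.0 and 8.6 in knockout pools, 0.8, 6.7 and 1.8 in heterozygous pools and 0.2 and 1.2 in wild-type pools. The second heterozygous pool lay above the first knockout pool, so the genotypes overlapped.

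Brdt, a testis bromodomain protein that reads acetylated histones, had probe sets that disagreed. The first read 12.6 and 8.5 in knockout pools, 9.1, 2.0 and 3.4 in heterozygous pools and 1.4 and 1.6 in wild-type pools. There the first heterozygous pool overlapped the knockout pools. The second read 2.2 and 1.2 in knockout pools, 2.4, 2.5 and 3.0 in heterozygous pools and 3.5 and 2.6 in wild-type pools, so the knockout pools were the lowest of all. The pair gives no single direction for Brdt, and both lie at the dim end of the array.

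Dpep3 and Tex101 encode proteins anchored on the surface of testicular germ cells, and mouse sperm need Tex101 for fertility. Dpep3, a dipeptidase, read 10.3 and 6.5 in knockout pools, 1.4, 3.1 and 1.9 in heterozygous pools and 3.2 and 0.8 in wild-type pools. The knockout pools lay above the rest without overlap. Tex101 read 21.9 and 5.9 in knockout pools, 5.0, 3.0 and 5.8 in heterozygous pools and 1.7 and 4.2 in wild-type pools. Its lower knockout pool was 1.02 times the highest other pool, so the difference rested on the first knockout pool: the log2 difference from wild type was 1.25 with both, 0.55 without the first and 1.95 without the second.

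**Figure D1:**
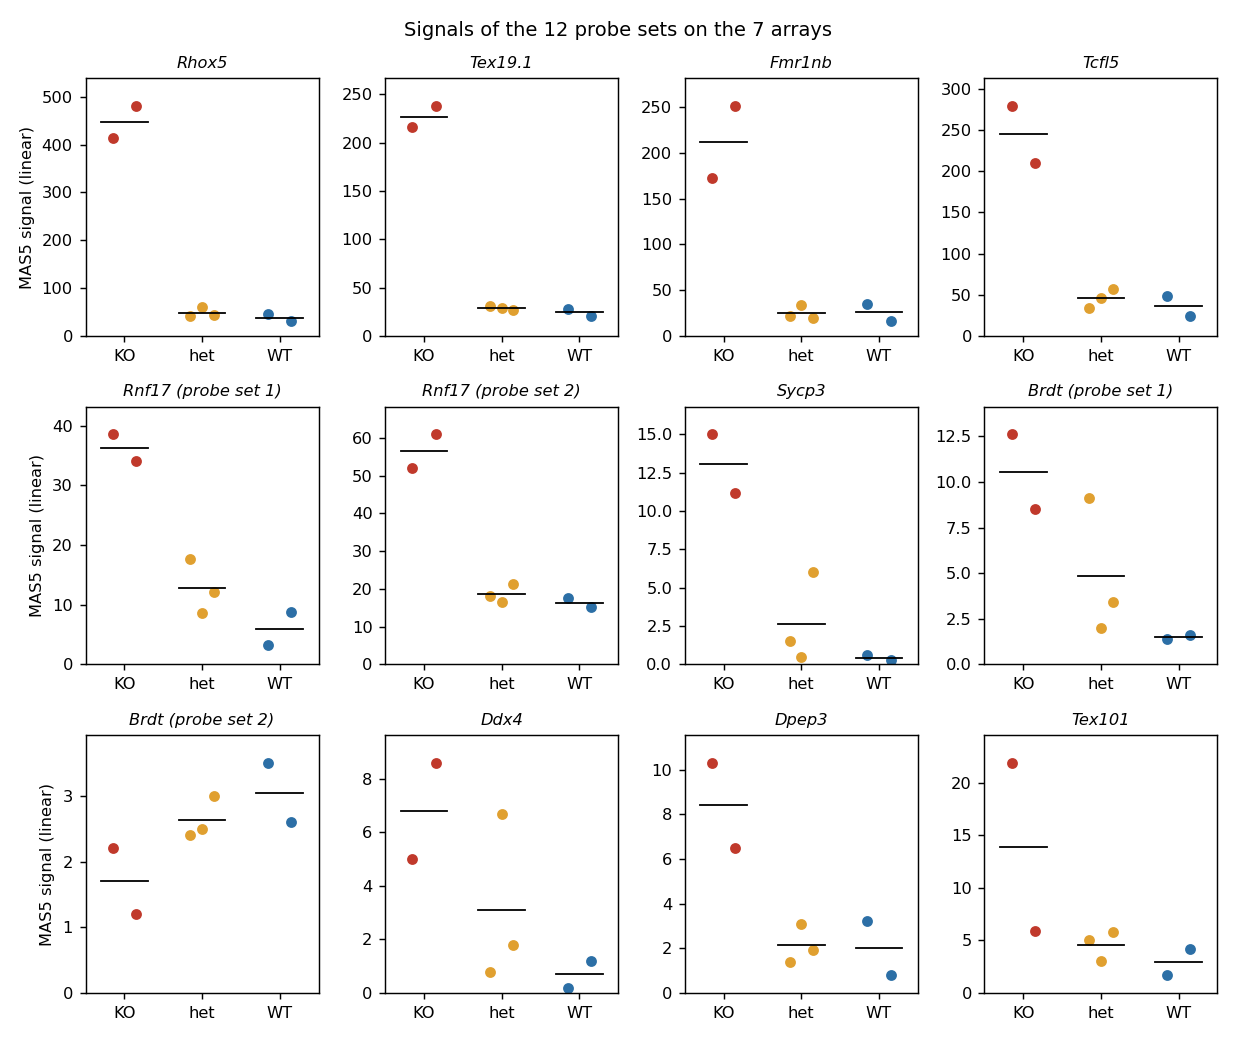
MAS5 signal (linear scale, own axis from 0 in each panel) of the 12 probe sets in knockout (KO), heterozygous (het) and wild-type (WT) pools; each point is 1 pool and each bar the mean of a genotype. Knockout pools lie above the other 5 in 9 panels, while Ddx4 and the first Brdt probe set overlap with heterozygous pools and the second Brdt probe set runs the other way.

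Differences were then put on the scale of log2(signal + 3.8), where the added 3.8 shrinks the differences of dim genes. Knockout minus wild type was 3.45 ± 0.25 (SE) for Rhox5, 3.04 ± 0.25 for Tex19.1, 2.92 ± 0.39 for Fmr1nb and 2.67 ± 0.34 for Tcfl5. The values of the 5 dimmest genes were smaller, from 1.09 ± 0.34 for Dpep3 to 1.98 ± 0.41 for Sycp3, leaving aside the second Brdt probe set at -0.32 ± 0.27. Rnf17 gave 2.10 ± 0.42 and 1.57 ± 0.31. Over the brightest probe set of each gene the median was 1.78, beside 0.01 over all genes.

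Knockout minus heterozygous used the same knockout arrays and gave 3.11 ± 0.23 for Rhox5, 2.83 ± 0.23 for Tex19.1, 2.91 ± 0.36 for Fmr1nb and 2.35 ± 0.31 for Tcfl5. The 10-gene median was 1.45. Rhox5, Tex19.1, Fmr1nb and Tcfl5 were the 4 members past the adjusted threshold in both comparisons. Of all genes 0.686% passed as higher against wild type and 1.19% against heterozygous. Knockout pools lay above all 5 others in 8 of 10 members and in 16.1% of all genes. These counts describe how the genes were picked. Fewer members passed without either knockout pool and, against wild type, without the second wild-type pool. That leaves 1 pool of the genotype, so the loss of a call cannot be laid to the pool left out. On leaving out any single pool, the difference from wild type was 3.21 to 3.70 for Rhox5 and 2.84 to 3.25 for Tex19.1. It was 2.45 to 3.39 for Fmr1nb and 2.2 to 3.1 for Tcfl5. The sign of every member's difference held when any pool was left out.

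**Figure D2:**
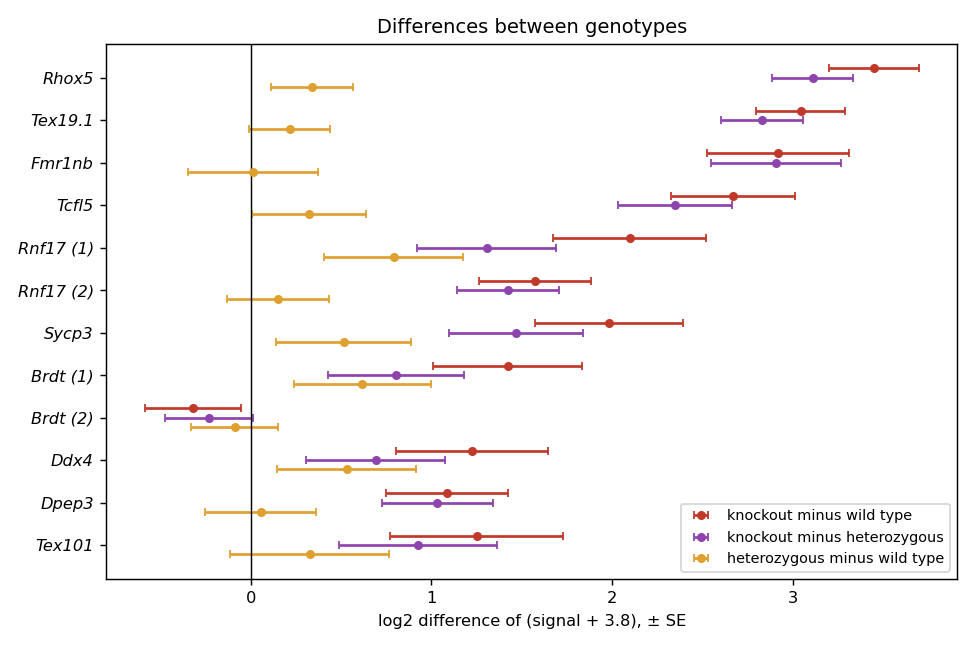
Log2 difference of (signal + 3.8) with its standard error for the 12 probe sets, knockout minus wild type, knockout minus heterozygous and heterozygous minus wild type. The knockout differences reach 3.45 for Rhox5, while heterozygous minus wild type stays between -0.09 and 0.79.

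Heterozygous against wild-type pools asks whether a single lost copy of Adnp went with a difference in these genes. The contrast itself did not choose them, but all 5 of its arrays took part in the choice, as the arrays that knockout pools stood above. In heterozygous against wild-type pools 0 of the 10 genes passed, 0 had an unadjusted p under 0.05 in limma, and 0% of all genes passed. At an unadjusted p under 0.05 there were 720 genes, or 5.81%. For Rhox5 heterozygous minus wild type was 0.34, with a 95% interval of -0.18 to 0.86. For Tex19.1 it was 0.21 (-0.30 to 0.73), for Fmr1nb 0.01 (-0.81 to 0.83) and for Tcfl5 0.32 (-0.40 to 1.04). These intervals leave room for a change of up to about a doubling.

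The dim genes were less certain: the first Rnf17 probe set gave 0.79 (-0.09 to 1.67) with an unadjusted limma p of 0.0722, the lowest of the members. The difference was above 0 in 11 of 12 probe sets, with a median of 0.32 against -0.00 over all probe sets, yet in only 1 of 12, the first Brdt probe set, did every heterozygous pool lie above every wild-type pool. Of all probe sets 8.62% had that order. Because the choice of members used the wild-type arrays, low wild-type readings may be favoured among them. That by itself can push heterozygous minus wild type above 0, so the sign carries no test.

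Germline genes other than the members were also counted. A set of 6 lists holds 182 further genes, 113 of which had a probe set, and 22 of these had one above the 40th percentile. The members, picked for reading higher in knockout pools, are left out of these lists but not of all genes. That choice by itself lowers the share of higher genes in the lists, so the shares are a description. Against wild type 0 of the 113 were higher and 0 lower in knockout pools at the adjusted threshold, where 0.686% and 0.355% of all genes were, and against heterozygous pools 1, Rec8, was higher (0.885%) and 0 lower, beside 1.19% and 0.896% of all genes. At an unadjusted limma p under 0.05, in either direction, there were 10 against wild type (8.85%) and 15 against heterozygous (13.3%), where 19.7% and 23.2% of all genes had one. Knockout pools lay above all 5 others in 15 genes (13.3%), near the 16.1% of all genes. A gene counted in these shares if any of its probe sets did. The 113 genes had 140 probe sets and all 12393 genes had 20380. Fewer probe sets per gene by themselves lower such shares. The median differences were 0.10 against wild type and 0.07 against heterozygous, beside 0.01 and 0.00 over all genes.

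Rec8, the meiotic cohesin subunit, read 24.9 and 38.0 in knockout pools, 2.5, 8.3 and 2.1 in heterozygous pools and 3.6 and 2.8 in wild-type pools. Every knockout pool stood above the rest, with a log2 difference of 2.18 ± 0.39 from heterozygous pools (limma adjusted p = 0.0414) and 2.31 ± 0.43 from wild type (adjusted p = 0.0615). The call against heterozygous pools was lost on leaving out any single pool other than the second heterozygous one (adjusted p 0.067 to 0.232). Among the other meiotic genes, 3 of 20 (15%) had knockout pools above all others, beside 16.1% of all genes. They were Rec8, Syce2 and Stag3, the last named after its values were seen. Syce2, a central element protein of the synaptonemal complex, read 361.6 and 345.5 in knockout pools, 163.1, 251.5 and 269.4 in heterozygous pools and 227.9 and 185 in wild-type pools (difference from wild type 0.77, limma adjusted p = 0.166). Psmc3ip and Mlh3, of meiotic recombination and mismatch repair, differed from wild type by -0.20 and -0.16 without passing.

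Among 11 measured germ cell RNA regulators, 0 passed in either comparison, with 1 and 2 at an unadjusted limma p under 0.05 against wild type and heterozygous pools. Dnd1, an RNA-binding protein that primordial germ cells need, read 46.9 and 71.3 in knockout pools, 32.4, 39.5 and 36.5 in heterozygous pools and 23 and 21.2 in wild-type pools. Its genotypes did not overlap and were ordered by the number of Adnp copies, but the difference of 1.25 from wild type did not pass (limma adjusted p = 0.111). Tdrd7, a Tudor protein of germ granules, differed from wild type by 0.32 and Ddx25, a helicase of spermatids, by -0.31. The list of 12 measured X-linked germline genes, which shares its chromosome with Rhox5 and Fmr1nb, had a median of 0.16 against wild type and -0.02 against heterozygous pools, with 0 past the threshold in either and 0 and 1 at an unadjusted p under 0.05.

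The 37 measured spermatid genes had a median of -0.00 from wild type and 0 called by limma, with 2 at an unadjusted p under 0.05. Prm1, the protamine that packs sperm DNA, gave 0.79 from its brightest probe set, not past the threshold, while its dimmer probe sets gave -0.21 and 0.07. Gapdhs and Tssk1, a sperm glycolytic enzyme and a testis kinase, gave 0.30 and 0.16. The 19 oocyte genes had a median of -0.15, with 0 called and 2 at an unadjusted p under 0.05, and Gdf9, an oocyte growth factor, gave -0.31. Zbed3 gave -1.67 from a probe set whose knockout pools read 5.8 and 36.3, and 0.15 from its brightest one.

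**Figure D3:**
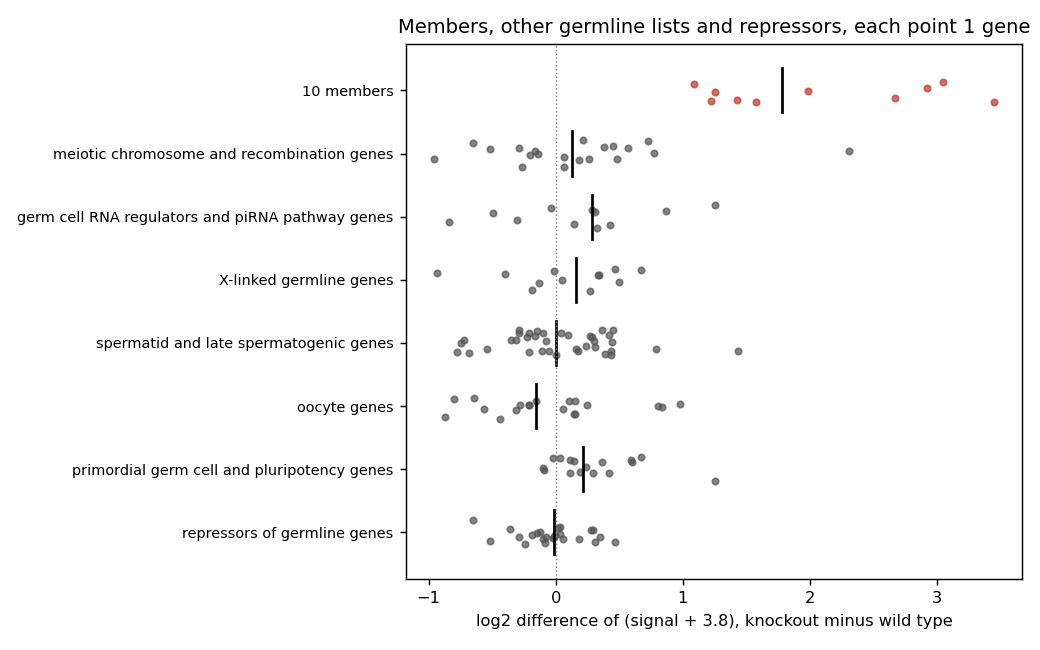
Log2 difference of (signal + 3.8), knockout minus wild type, for the brightest probe set of each gene; each point is a gene, each row a list and each bar its median. The 10 members run from 1.09 to 3.45, while list medians lie between -0.15 and 0.28, with Rec8 at 2.31 the farthest point of the other lists.

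The known repressors of germline genes were measured beside them, 24 genes with 53 probe sets. That is more probe sets per gene than over all genes, which by itself raises shares that count any probe set. Against wild type 0 passed, with 8 (33.3%) at an unadjusted limma p under 0.05, where 19.7% of all genes had one. Against heterozygous pools 8 (33.3%) had one, beside 23.2% of all genes, and 1 passed, Ehmt2, the G9a histone methyltransferase. It read 592.2 and 579 in knockout pools, 844.7, 792.2 and 849.3 in heterozygous pools and 770.7 and 731.8 in wild-type pools. Ehmt2 was thus lowest in both knockout pools, by -0.50 ± 0.08 from heterozygous (limma adjusted p = 0.0355) and by -0.36 from wild type (adjusted p = 0.132). The call was lost on leaving out any single pool but the second heterozygous one (adjusted p 0.0609 to 0.227). The maintenance methyltransferase Dnmt1 differed from wild type by -0.01 and E2f6, the DNA-binding subunit of a germline Polycomb complex, by 0.02. Max, the partner of MGA in that complex, gave 0.31 and Trim28, a silencing cofactor, gave 0.06. Ring1, of the same list, read 103.4 and 106.5 in knockout pools and 147.5 to 188.8 in the others. Its difference was -0.52 from wild type and -0.61 from heterozygous pools, without a call (limma adjusted p = 0.179 and 0.0823). From wild type the probe sets of Pcgf6 gave -0.25, -0.37 and 0.48 and those of Mga 0.18 and 0.02, also without a call. Among probe sets above the 40th percentile, the widest differences from wild type without a call were 0.74 for Dnmt3b, a de novo methyltransferase, -0.65 for Kdm5c, an X-linked demethylase, and 0.61 for Cbx1, a heterochromatin protein. Brighter probe sets of Dnmt3b and Cbx1 gave 0.47 and -0.09. Dimmer probe sets of Rnf2 and Cbx5, named after their values were seen, gave -0.82 and -0.81 without a call, while the brightest ones of these genes gave 0.03 and -0.15. The repressor list's median was -0.02.

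Markers of germ cells and of other tissues that carry some of these genes were read on the same arrays. Of 11 primordial germ cell markers 9 had a probe set, and their summed signal was 586.7 to 601.7 in knockout, 506 to 543.8 in heterozygous and 481.1 to 530.1 in wild-type pools. Most of the sum came from Ifitm3, Kit, Prdm1 and Alpl, so it weighs the other markers little. Dppa3 read 46.3 and 38.2 in knockout pools, 20.2 to 35.9 in heterozygous pools and 46.6 and 39.3 in wild-type pools. Knockout pools lay above all others in the brightest probe set of 2 of the 9, Alpl and Dnd1. By any probe set 16.1% of all genes had that order. Alpl, the alkaline phosphatase long used to stain these cells, read 97.7 and 101.2 in knockout pools, 70.1, 64.8 and 83.6 in heterozygous pools and 71.6 and 75.3 in wild-type pools, without a call. Kit, the receptor that guides them, gave 0.35 and 0.19 from its probe sets. Dazl and Pou5f1 were dim on all arrays, with 10.7 and 0.9 for Dazl in knockout pools, and none of the 9 read exactly 0. Over the 16 measured genes of the primordial germ cell and pluripotency list 0 passed against wild type, and the median was 0.21. At an unadjusted limma p under 0.05 there were 2 (12.5%), where 19.7% of all genes had one. Against heterozygous pools 0 passed, 5 of the 16 (31.2%) had an unadjusted p under 0.05, where 23.2% of all genes did, and the median was 0.36. Knockout pools lay above all others in 37.5% of the list and in 16.1% of all genes.

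Visceral endoderm markers stood higher on the same knockout arrays by far more. Their summed signal over 19 genes was 11500 and 13620 in knockout pools, 1332, 2555 and 1682 in heterozygous pools and 3633 and 1243 in wild-type pools, with none at 0. Of the 19, 5 were called higher against wild type (26.3%), 9 against heterozygous (47.4%), and 18 had knockout pools above all others (94.7%). Over all genes these shares were 0.686%, 1.19% and 16.1%. The 19 genes had 41 probe sets, more per gene than over all genes. Cubn, an endocytic receptor of this layer, rose by 4.08 against wild type (limma adjusted p = 0.0257) and Apob, which carries lipid out of it, by 2.99 (adjusted p = 0.0274). Apoa4 and Lrp2 rose as well, by 3.23 and 1.68, as did the endocytic adaptor Dab2. Transcription factors of the list differed less. The probe sets of Gata4, Gata6, Sox17 and Foxa2 gave -0.13 to 0.91 from wild type, without a call in either comparison. Hnf4a was called only against heterozygous pools, by 1 of its probe sets (2.17, limma adjusted p = 0.0297). Each of the calls of Cubn and Apob against wild type was lost without either knockout pool, the second wild-type pool or the third heterozygous pool.

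Rhox5 and Tex19.1 are known from extraembryonic tissue, and the part of such tissue in their differences, or in those of the other members, was not tested. Among the 5 pools with Adnp the endoderm sum ranged from 1243 to 3633, while Rhox5 ranged from 30.9 to 61.0 and Tex19.1 from 20.5 to 30.9. The pool with the highest of these sums, the first wild-type pool, read 44.9 for Rhox5 and 28.3 for Tex19.1. The second heterozygous pool, next in the sum, had the highest Rhox5 of the 5. Fmr1nb read 35.1 and 34.3 in these same pools, the first wild-type and the second heterozygous, against 16.4 to 21.4 in the remaining 3. Tcfl5 read 48.5 in the first wild-type pool and 24.8 in the second, with 33.5 to 57.5 in heterozygous pools.

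**Figure D4:**
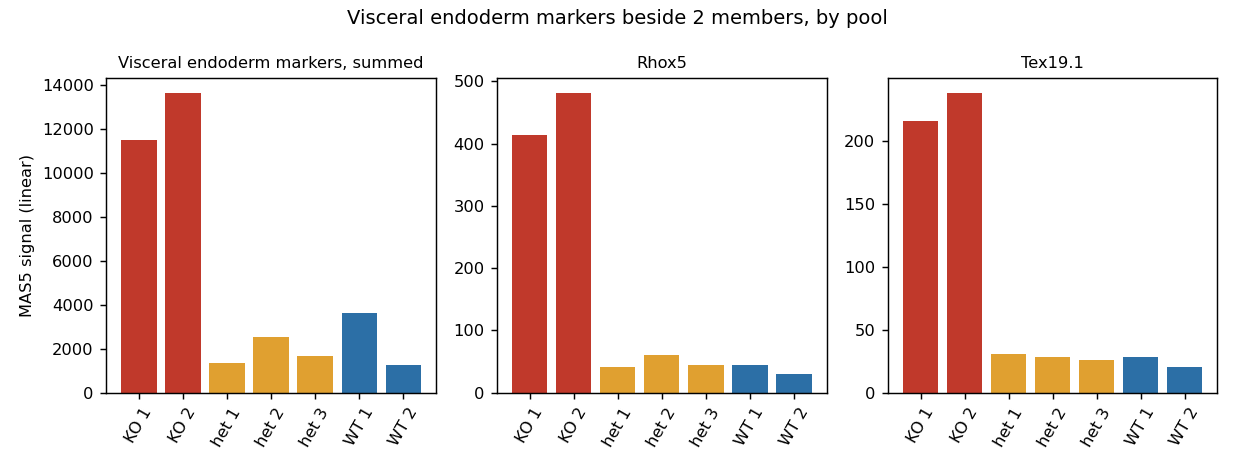
Summed MAS5 signal of 19 visceral endoderm markers, and signals of Rhox5 and Tex19.1, by pool (KO, knockout; het, heterozygous; WT, wild type; linear axes from 0). All 3 measures are highest in both knockout pools, and the first wild-type pool has the highest marker sum of the other 5.

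Markers of trophoblast, the source of the placenta, were mostly dim. The sum over 15 markers was 660.2 and 791 in knockout pools, 480.4, 465.7 and 569.4 in heterozygous pools and 655.5 and 496.9 in wild-type pools, with 10 of the 15 below the 40th percentile and none at 0. Knockout pools lay above all others in 5 of the 15 genes (33.3%), Eomes, Cdx2, Ascl2, Plac1 and Rhox6, beside 16.1% of all genes. Eomes, a T-box factor of trophoblast stem cells and also of early mesoderm and endoderm, was the 1 called gene, by 1 of its probe sets. That probe set read 24.1 and 15.1 in knockout pools, 3.3, 3.0 and 2.3 in heterozygous pools and 2.4 and 2.3 in wild-type pools. Its difference was 1.90 from wild type (limma adjusted p = 0.0461) and 1.79 from heterozygous (adjusted p = 0.0313), and leaving out any single pool ended both calls. The brighter Eomes probe set read 28.6 and 33.7 in knockout pools, 13.3, 40.2 and 39.8 in heterozygous pools and 27.1 and 15.4 in wild-type pools. Its genotypes overlapped, with differences of 0.52 from wild type and 0.12 from heterozygous (limma adjusted p = 0.712 and 0.933). Plac1, a placental membrane protein, differed by 0.84 from wild type without passing. Peg10, named by the same rule, went the other way by -0.64, and Plet1 gave 0.43 and 0.70 from its probe sets. Neither passed, and their genotypes overlapped. The median of the list was 0.29 from wild type and 0.41 from heterozygous pools. Cdx2, a homeobox factor of trophoblast and of the posterior embryo, read 69 and 98.3 in knockout pools, 4.4, 23.9 and 24.3 in heterozygous pools and 26.6 and 11.1 in wild-type pools. Its difference was 2.02 from wild type and 2.22 from heterozygous, and neither passed (limma adjusted p = 0.193 and 0.109). The probe sets of Ascl2, a placental transcription factor, lay 0.91 to 1.17 above wild type, also without passing. The part of trophoblast in the members' differences was not tested.

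Somatic cells of the testis have not formed at this stage, and their 12 measured markers served as a comparison. The sum was 390.2 and 499.9 in knockout pools, 400.6, 422.4 and 435.5 in heterozygous pools and 421.9 and 376.3 in wild-type pools, which overlapped. By any probe set 2 of the 12 (16.7%), Dmrt1 and Clu, had knockout pools above all others, beside 16.1% of all genes. By the brightest probe sets 1 did, Dmrt1, and the brightest Clu probe set did not have that order. A dimmer Clu probe set read 99.1 and 82.1 in knockout pools and 18.9 to 52 in the others. It differed by 1.61 from wild type, Gata1 by -0.47 and Star by 0.28, without a call. Dmrt1, a sex-determination factor also made by germ cells, passed against heterozygous pools (1.78, limma adjusted p = 0.0411) but not against wild type (0.35), and leaving out any single pool ended the call.

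Genes outside the members that followed their mean log2 signal most closely over the 7 arrays were ranked among 8015 candidates as a description. Pearson's r was 0.993 for Rps4l, 0.992 for Bnip3, 0.991 for Lmbrd1 and for Lrp2, 0.990 for Spint1, Ctsl and Gnpda1, and 0.989 for Csf2ra. With 2 arrays far above 5, any gene that splits the same way scores high. Bnip3, a mitochondrial protein of the hypoxia response, read 1623.9 and 1574.6 in knockout pools, 540.3, 545.4 and 494.7 in heterozygous pools and 491.1 and 466 in wild-type pools. Ctsl, a lysosomal protease, read 1604 and 1721.2 in knockout pools, 731.1, 697.3 and 733.3 in heterozygous pools and 742.7 and 599.4 in wild-type pools. Lrp2 is 1 of the visceral endoderm markers above. None of the 8 belongs to the germline lists.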

How the data were processed

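RNA of 7 pools of mouse embryos was read on Affymetrix Murine Genome 430A arrays. What the authors deposited is a linear intensity per probe set and array. MAS5 produced it, per the submitters' processing notes. MAS5 combines perfect-match and mismatch probes and is noisy for dim probe sets. The version of MAS5 is not stated in the labels, and no detection calls were used. The 2% trimmed mean was 150.0 to 150.1 on every array, so the values are scaled per array and levels are relative to the whole array.

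From there, log2(signal + 3.8) was computed, 3.8 being the 10th percentile of all values, for all 22626 probe sets other than 64 controls. One fit over the 7 arrays with genotype as the only term was made in R 4.3.3 with limma 3.58.1 (lmFit, eBayes with an intensity trend), with 4 residual degrees of freedom and two-sided p-values adjusted by Benjamini-Hochberg over all 22626, threshold 0.05. A gene was called if any of its probe sets passed. Medians and sums use the probe set with the highest mean. Genes were named only from the 20380 probe sets with 1 symbol; 691 had several and 1555 were unnamed. Groups came from the sample titles.

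The members and the 10 gene lists were chosen with earlier results of these data known. Besides the members, the text names genes of each list past the threshold in a knockout comparison, up to 3 more by the largest difference from wild type among probe sets above the 40th percentile, primordial germ cell markers, and the 8 genes most like the members. For lists with many called genes only some are named. Dnmt1, E2f6, Max, Trim28, Ring1, Pcgf6, Mga, Cdx2, Ascl2, Rhox6, Rnf2, Cbx5, Gata4, Gata6, Sox17, Foxa2 and further probe sets of named genes were added after their values were seen. Promoter letters are RefSeq's for GRCm38.p6. The fit was tested on simulated data.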

Additional observations from a re-analysis of the deposited data

How the results depend on the processing

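In all, 16 alternatives were tried, and none turned the sign of a member's difference between knockout and another genotype. The number of probe sets called against wild type, 154 as reported, was 273 with a filter at the 40th percentile, 0 without the intensity trend, 260 with array weights and 52 with only the 2 genotypes compared in the fit. Leaving out single pools gave 0 (second knockout pool) to 177 (first heterozygous pool), with 6 without the first knockout pool, 9 without the second wild-type pool, 63 without the first wild-type pool and 62 without the third heterozygous pool. Against heterozygous pools, 315 as reported, it was 544 with the filter and 69 without the trend, and 2 (second knockout pool) to 314 (second heterozygous pool) when leaving out single pools, with 15, 93 and 70 without the first knockout pool, the first heterozygous pool and the third heterozygous pool. Leaving out a knockout or wild-type pool leaves 1 pool of that genotype, which by itself makes its mean less precise. The cause was not tested. Heterozygous against wild type gave 0 probe sets, with 0 to 1 on leaving out a pool (1 without the second heterozygous pool), and 0 member genes throughout, with a lowest adjusted p of 0.894. Member genes past the threshold, 4 in each knockout comparison, were 0 against wild type and 3 against heterozygous without the trend, and 2 against wild type with only the 2 genotypes compared. Other germline genes higher against wild type, 0 as reported, were 1 with a pseudocount of 32 and 1 with array weights, and 0 to 1 on leaving out a pool. Against heterozygous, 1 as reported, they were 0 with a pseudocount of 1, with the filter, without the trend and with only the 2 genotypes compared, and 0 to 1 on leaving out a pool.

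With the replicate number as a block, 4 probe sets passed against wild type, 8 against heterozygous and 0 in heterozygous against wild type, with 0 members, and 0 other germline genes higher. Deviations of same-numbered pools from their genotype means had correlations of -0.305 to 0.0109. Within knockout, and within wild type, the deviations of the pools are mirror images of each other. Few of these correlations are therefore independent, and they cannot decide whether the numbers pair the samples.

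With 2 pools per outer genotype, signals under the 40th percentile are the least precise. For 6 of the 10 genes no probe set had a mean over all arrays above that cut.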
